A study of Mus musculus with 39 samples.

Results

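The data were RNA counts of CD11b+ microglia, the resident immune cells of the brain, from the cerebrum of WT (C57Bl6) and 5XFAD mice kept in normoxia (NX) or chronic intermittent hypoxia (CIH). The genes described were the 10 mitochondrially encoded subunits of the respiratory chain mt-Nd1, mt-Nd2, mt-Nd4, mt-Nd5, mt-Nd6, mt-Cytb, mt-Co1, mt-Co2, mt-Co3 and mt-Atp6. They were taken by name and were 10 of 46333 genes in the table of females and 10 of 54532 genes in that of males. Every one of the 10 was found in both tables and passed the filter on low counts in each comparison, and they were 10 of the 37 genes of chromosome MT and 10 of its 13 protein-coding genes.

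There were 39 libraries, with 5 libraries per group except for 4 in female WT NX. Females were 10 months old and males 8 months old, so sex and age cannot be told apart, and the groups were compared within each sex. By the labels, CIH alternated 6.5% and 21% O2 in intervals of 90 s for 8 h per day in the sleep phase from 4 months of age, and NX mice were kept at 21%. The study's methods give a lower O2 level and a longer daily exposure than the labels. 5XFAD mice carry mutant human transgenes, which are driven by a promoter active in neurons and lead to amyloid plaques, and the WT mice lack them. The labels do not tie a library to an animal, and the study's methods call the samples of a group independent.

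Mitochondria keep a small circular genome of their own, and its protein-coding genes all serve oxidative phosphorylation. The ND genes code for subunits of complex I (NADH dehydrogenase), mt-Cytb codes for a subunit of complex III, the CO genes code for the catalytic core of complex IV (cytochrome c oxidase), and mt-Atp6 codes for a subunit of complex V (ATP synthase). Of the protein-coding genes not described here, mt-Nd3 and mt-Nd4l belong to complex I and mt-Atp8 to complex V, and all other subunits of these complexes come from nuclear genes. The mitochondrial genome is transcribed as long precursors from each strand, which are then cut at the tRNAs between the genes. Of the genes described, only mt-Nd6 is read from the strand opposite to the rest. In microglia, oxidative phosphorylation is known as the main energy source of the resting state.

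In the GRCm38 genome the genes lay in the order mt-Nd1 (chrMT:2751-3707), mt-Nd2 (chrMT:3914-4951), mt-Co1 (chrMT:5328-6872), mt-Co2 (chrMT:7013-7696), mt-Atp6 (chrMT:7927-8607), mt-Co3 (chrMT:8607-9390), mt-Nd4 (chrMT:10167-11544), mt-Nd5 (chrMT:11742-13565), mt-Nd6 (chrMT:13552-14070) and mt-Cytb (chrMT:14145-15288). Each is a single exon without introns. mt-Nd6 lies on the minus strand and its end overlaps that of mt-Nd5, and whether the counting used strand is not given in the sources used here. Reads of mt-Nd6 and of RNA antisense to it could therefore not be told apart.

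Parts of the mitochondrial genome have been copied into nuclear chromosomes, and reads from such stretches can be placed at either site. The transcripts of the GENCODE M21 annotation were searched for windows of each mitochondrial gene. Of the windows of 31 bases, 100% of those of mt-Co2, 99.9% of mt-Co3 and 99.5% of mt-Atp6 also occurred in a nuclear gene. The share was 63.9% for mt-Co1 and 62.8% for mt-Nd4, between 6.55% and 16.8% for mt-Nd2, mt-Nd5, mt-Nd6 and mt-Cytb, and 0% for mt-Nd1. With windows of 150 bases, the read length, the shares were 99.4% for mt-Co2, 99.4% for mt-Atp6, 99.8% for mt-Co3, 59.2% for mt-Nd4 and 23.6% for mt-Co1, and 0% for the other 5 genes. The copies of mt-Co2, mt-Atp6, mt-Co3 and mt-Nd4 are the pseudogenes Gm28661 (chr1:24614885-24615565), Gm10925 (chr1:24613974-24614651), Gm28437 (chr1:24613189-24613971) and Gm28439 (chr1:24611535-24612410), which lie close together.

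A stretch of mt-Co2 and the same stretch of Gm28661 are printed below to show that no base separates the copies, and a stretch of mt-Nd5 with its copy Gm4076 (chr13:85126550-85127514) to show a pair that reads can tell apart. Each is written 5′ to 3′ on the strand of the mitochondrial gene, from GENCODE M21 transcripts on GRCm38, and capitals mark the bases that differ. The mt-Co2 stretch lies at chrMT:7323-7382 and the mt-Nd5 stretch at chrMT:12899-12958, both on the plus strand.
mt-Co2: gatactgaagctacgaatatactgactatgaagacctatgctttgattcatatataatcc
Gm28661: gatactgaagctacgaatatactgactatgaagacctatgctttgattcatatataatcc
mt-Nd5: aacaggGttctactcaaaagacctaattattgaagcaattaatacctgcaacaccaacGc
Gm4076: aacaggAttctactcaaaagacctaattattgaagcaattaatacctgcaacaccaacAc
Over the 681 bases that mt-Co2 and Gm28661 share, 0 differed. Over the 965 bases shared by mt-Nd5 and Gm4076, 93 differed, which left 90.4% identical.

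The split of counts between a gene and its copy differed from pair to pair. In the male table, Gm28661 held 24.6% to 31.8% of the summed counts of mt-Co2 and itself, Gm10925 held 40.7% to 55.7% of the sum with mt-Atp6, and Gm28437 held 33.3% to 38.7% of the sum with mt-Co3. Gm28439, which shares 846 windows of 31 bases with mt-Nd4, held only 0.302% to 0.839% of the sum with it, and Gm29216, which shares 449 with mt-Co1, held 0.245% to 0.773%. Gm4076 held at most 0.0175% of the sum with mt-Nd5. The female table lists none of these pseudogenes. How reads that match both sites were counted is not given in the sources used here, and the values of mt-Co2, mt-Co3 and mt-Atp6 are uncertain in level. The same limit holds for the parts of mt-Nd4 (59.2%) and mt-Co1 (23.6%) whose 150-base windows occur in a nuclear gene.

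Levels of different genes were compared as CPM (counts scaled to the library total) per kilobase of gene length, averaged over all libraries of a sex. mt-Co1 was highest, with 3236 in females and 3629.9 CPM per kb in males, followed by mt-Cytb with 1801 and 2796 and mt-Nd1 with 1392 and 2381. The lowest were mt-Co2 with 20.9 in females and 155 in males, mt-Atp6 with 14.2 and 47.8, and mt-Co3 with 12.6 and 58.7. The order of the first genes held in most libraries: mt-Co1 lay above mt-Cytb in 19 of 19 female and 18 of 20 male libraries, and mt-Cytb above mt-Nd1 in 19 of 19 and 19 of 20. mt-Nd4 lay above mt-Co2 in 19 of 19 female libraries, by at least 18.8 times.

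In the middle of the order, neighbours did not separate. In females, mt-Nd2 (799), mt-Nd5 (697), mt-Nd6 (658) and mt-Nd4 (648) changed places between libraries, with mt-Nd6 above mt-Nd4 in 9 of 19. In males, mt-Nd4 (1248), mt-Nd6 (1157) and mt-Nd2 (1151) changed places, with mt-Nd6 above mt-Nd2 in 10 of 20, and mt-Nd5 (584) lay below mt-Nd2 in 19 of 20. The 3 genes with the lowest level were those with nearly all 150-base windows in a nuclear copy, in both sexes.

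**Figure D1:**
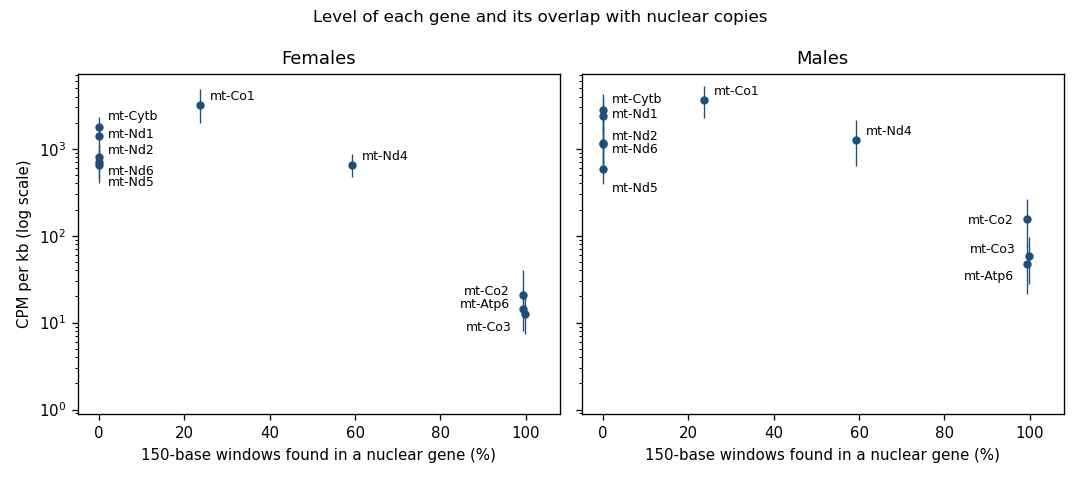
Level of each gene (CPM per kb, log scale) against the share of its 150-base windows that occur in a nuclear gene (%), for females and males. Points are means over libraries and bars run from the lowest to the highest library; mt-Co2, mt-Co3 and mt-Atp6, at 99.4% or more, lie below all others in both sexes.

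The 10 genes together took about 1% to 2% of all counts of a library. In females, they held 0.963% to 1.21% of the counts in WT NX, 0.803% to 0.979% in WT CIH, 1.19% to 1.46% in 5XFAD NX and 1.17% to 1.67% in 5XFAD CIH. In males, they held 1.23% to 1.67% in WT NX, 0.946% to 1.16% in WT CIH, 1.63% to 2.30% in 5XFAD NX and 1.59% to 2.18% in 5XFAD CIH. WT CIH was the lowest group in both sexes, and its libraries did not overlap with those of 5XFAD CIH in either sex, nor with those of WT NX in males. In females, WT NX and WT CIH overlapped, as did WT NX and 5XFAD NX in both sexes. In bulk libraries, fewer cells of a type and less RNA per cell cannot be told apart.

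**Figure D2:**
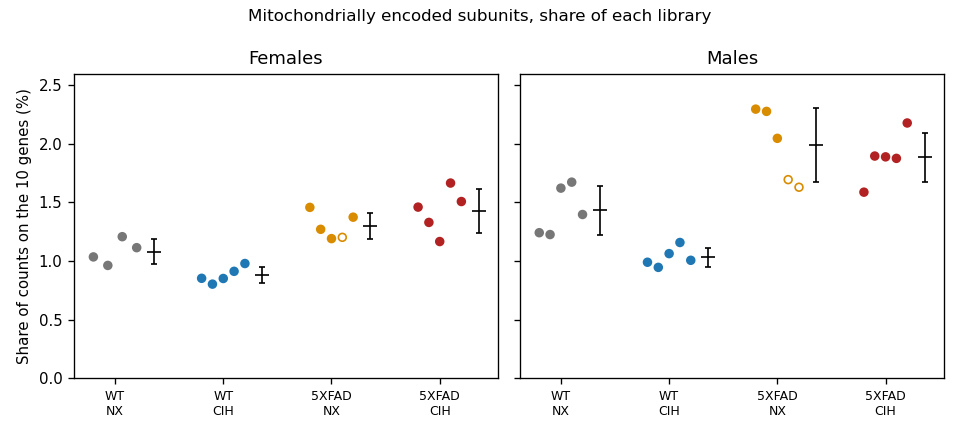
Share of each library's counts on the 10 genes (%) by group, for females and males. Points are libraries, open points are the 3 libraries that stood apart (F 5XFAD NX 4, M 5XFAD NX 4 and M 5XFAD NX 5), and bars are mean ± SD; WT CIH is lowest in both sexes, at 0.880% ± 0.0677 in 5 females and 1.03% ± 0.0818 in 5 males.

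Libraries held 14731683 to 25906121 counts in females and 13457293 to 23095627 in males. Member counts per library ran from 83 (mt-Atp6 in females) to 144177 (mt-Co1 in females), so that counting error was small for all but mt-Co2, mt-Co3 and mt-Atp6 in females. The microglial marker Cx3cr1 was found in every library, at 5382 to 6666 CPM in WT and lower, at 2755 to 5154 CPM, in 5XFAD. In a principal component analysis, F 5XFAD NX 4 lay at −42.5 on the first component, among the WT females (−58.2 to −27.9), while the other 5XFAD NX females lay above 0. M 5XFAD NX 4 and 5 lay at −1.94 and −3.65, while the other 5XFAD NX males lay at 78.8 to 80.1. The nuclear lncRNA Malat1 was at 1675 and 1501 CPM in these 2 male libraries and at 117 to 165 CPM in the other 3 of the group. All libraries were kept. The male comparisons that use M 5XFAD NX 4 and 5 are also given without them, and the genotype comparison in NX females also without F 5XFAD NX 4. The study's methods name a female normoxia sample as an outlier without giving its label.

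Genotype was compared first within CIH. In males, 5XFAD CIH libraries lay above WT CIH libraries in each of the 10 genes, with no overlap. mt-Nd6, the gene of the opposite strand, was at 324, 285, 336, 368 and 340.4 CPM in WT CIH and at 579, 692, 775, 817 and 1169 CPM in 5XFAD CIH. Its log2 fold change (log2FC) was 1.69 ± 0.186 (SE, n = 5 per group; adjusted p = 4.7e-06, edgeR). This was the largest change of the 10 genes in this comparison.

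mt-Nd1, the complex I gene with no nuclear copy found, was at 1380.4, 1224, 1392, 1531 and 1337 CPM in WT CIH males and at 1916, 2451, 2637, 2731 and 3723 CPM in 5XFAD CIH males. The lowest 5XFAD library lay above the highest WT library, and the log2FC was 1.37 ± 0.172. mt-Co1, the gene with the highest level, was at 3482, 3570.2, 4077, 4397 and 3876 CPM in WT CIH and 6328, 7353, 6814, 6249.7 and 5884 CPM in 5XFAD CIH, with a log2FC of 1.12 ± 0.0873. It had the smallest SE of the 10 genes and the lowest adjusted p (1.5e-07). mt-Nd5 was the smallest change: 798, 854, 942, 901 and 721 CPM in WT CIH and 1231, 1484, 1239, 1029 and 1002 CPM in 5XFAD CIH, with a log2FC of 0.87 ± 0.109.

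Of the other complex I genes, mt-Nd4 rose from 879 to 1024 CPM in WT CIH to between 1624 and 2957 CPM in 5XFAD CIH (log2FC 1.62), and mt-Nd2 from 688 to 902 to between 991 and 1869 CPM (log2FC 1.19). mt-Cytb of complex III rose from 1858 to 2332 to between 3046 and 4866 CPM (log2FC 1.29). mt-Co2 and mt-Co3 rose with log2FCs of 1.47 and 1.38, and mt-Atp6 with a log2FC of 1.60. Adjusted p-values of the 10 genes were between 1.5e-07 and 5.6e-05 in edgeR's quasi-likelihood test. 10 of 10 genes were called higher (adjusted p below 0.05), against a background of 25.3% of the 14793 genes tested that were higher and 23.7% that were lower, and 9 of 10 also exceeded a log2FC of 1, against 11.8%. Libraries did not overlap for 10 of 10, against 11.5% of genes that were higher without overlap.

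In CIH females, 5XFAD libraries again lay above those of WT in each of the 10 genes. The sexes were not tested against each other. mt-Co1 was at 3341, 3103, 3265, 3633 and 3847 CPM in WT CIH and at 6330.2, 5638, 4949.8, 7527 and 6958 CPM in 5XFAD CIH, without overlap (log2FC 1.07 ± 0.121, adjusted p = 8.4e-06, edgeR). mt-Nd5 was at 813, 833, 832, 1001 and 1007 CPM in WT CIH and at 1386, 1234, 1134, 1982 and 1790.2 CPM in 5XFAD CIH (log2FC 0.95 ± 0.155). mt-Nd6 was at 264, 237, 211, 267 and 267 CPM in WT CIH and at 397, 321, 308, 571 and 456 CPM in 5XFAD CIH (log2FC 0.92 ± 0.159). For both genes, 2 libraries of 5XFAD CIH (replicates 4 and 5) lay above the other 3.

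mt-Nd1 was at 1101, 1005, 1089, 1068 and 1227 CPM in WT CIH females and at 1806, 1555, 1387, 1669 and 1497 CPM in 5XFAD CIH females (log2FC 0.72 ± 0.0862). mt-Nd2 changed least (log2FC 0.53 ± 0.0739) and mt-Nd4 and mt-Cytb gave 0.79 and 0.76. The largest changes were those of mt-Co2 (1.08), mt-Co3 (1.11) and mt-Atp6 (1.18), whose means were at most 19.3 CPM. 10 of 10 genes were called higher, against 26.2% of the 14911 genes tested that were higher and 25.7% that were lower, and mt-Co1, mt-Co2, mt-Co3 and mt-Atp6 exceeded a log2FC of 1, 4 of 10 against 8.83%. The libraries did not overlap for 10 of 10, against 13% of genes (1933 of 14911). The adjusted p-values lay between 3.0e-06 and 0.00033.

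The size of these changes depended on the scaling and on a correction for gene length. The fits used TMM factors, which set the median log2FC of all genes to −0.06 in CIH males and −0.02 in CIH females. With library size alone the medians of all genes were −0.43 and −0.21, and those of the 10 genes 0.97 and 0.73, against 1.37 and 0.93 with TMM, and 10 of 10 genes were again called higher in both sexes, against 14.9% of all genes in males and 17.5% in females. The share of all calls that were higher changed with it, from 51.6% to 24.5% in CIH males and from 50.5% to 29.3% in CIH females. In NX males it went from 58.6% to 33.1%, and in WT NX vs WT CIH males from 47.6% to 64.5%. With each library's trend of log2 expression on log2 gene length removed, the log2FCs in CIH males were 0.56 (mt-Nd5) to 1.14 (mt-Nd4). Of these, mt-Nd4 alone exceeded 1. In CIH females they were 0.37 (mt-Nd2) to 1.03 (mt-Co1). Adjusted p-values were at most 0.0034 in males and 0.0055 in females (limma). The slope of this trend was −0.0102 to 0.0979 in WT CIH males and −0.0995 to 0.0492 in 5XFAD CIH males.

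In NX, the genotypes were less well separated. In females, mt-Nd5 was at 1130.2, 1133, 1279.6 and 1131 CPM in WT NX and at 1620.2, 1478, 1291, 1452 and 1633 CPM in 5XFAD NX, with no overlap (log2FC 0.53 ± 0.147, adjusted p = 0.045, edgeR). mt-Nd6 was at 296, 277, 340.0 and 314 CPM in WT NX and at 424, 382, 335, 393 and 424 CPM in 5XFAD NX, with a single 5XFAD library below the highest WT library (log2FC 0.52 ± 0.131, adjusted p = 0.035, edgeR). These 2 of 10 genes were called higher, against 7.26% of the 14513 genes tested that were higher and 6.61% that were lower, and 0 exceeded a log2FC of 1, against 4.4%.

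mt-Co1 was at 4385, 3592, 4881 and 4685 CPM in WT NX females and at 6808, 5936, 5193, 4751 and 6172 CPM in 5XFAD NX females. Its log2FC of 0.58 ± 0.211 did not pass (adjusted p = 0.088, edgeR), and its lowest 5XFAD library, F 5XFAD NX 4, lay among those of WT. mt-Nd1 was at 1169, 1234, 1475 and 1285 CPM in WT NX and at 1492, 1187, 1281, 1419 and 1374 CPM in 5XFAD NX, which overlapped (log2FC 0.23 ± 0.131). The other log2FCs were between 0.13 (mt-Nd2) and 0.57 (mt-Co3). Libraries did not overlap for 1 of 10, against 3.46% of genes, and 7 of 10 had an unadjusted p below 0.05, against 34.1%. Without F 5XFAD NX 4, 8 of 10 genes were called higher, against 21.8% of all genes in that fit, and mt-Co1 had a log2FC of 0.69 (adjusted p = 0.0035, edgeR), and without F 5XFAD NX 3, 1 of 10 was called, against 2.07%. When any single one of the 4 WT NX libraries or F 5XFAD NX 1, 2 or 5 was left out, 0 were called, against 0.301% to 6.52% of all genes in either direction.

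In NX males, mt-Nd5 was at 778, 719, 991, 807 and 733 CPM in WT and at 1248, 1247, 1085, 1901 and 1613 CPM in 5XFAD (log2FC 0.99 ± 0.133, adjusted p = 0.00022, edgeR). mt-Co1 was at 4139, 4209, 5470.3, 4935 and 4537 CPM in WT NX and at 7552, 8198, 7147, 6998 and 6949 CPM in 5XFAD NX (log2FC 0.87 ± 0.132, adjusted p = 0.00056, edgeR). Neither gene overlapped between genotypes. mt-Nd6 was at 357, 376, 496, 591 and 494 CPM in WT NX and at 1031, 979.9, 888, 584 and 529.8 CPM in 5XFAD NX (log2FC 1.02 ± 0.250, adjusted p = 0.013, edgeR), and its 2 lowest 5XFAD libraries, M 5XFAD NX 4 and 5, lay below the highest WT library.

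The remaining 7 genes did not pass in NX males, and M 5XFAD NX 4 and 5 lay apart in each of them. mt-Nd1 was at 1967, 1972, 2609, 2799.6 and 2179 CPM in WT NX, and at 3626, 3325, 2965, 1995 and 1816 CPM in 5XFAD NX, so that replicates 1 to 3 lay above all WT libraries, replicate 4 among them and replicate 5 below them (log2FC 0.48 ± 0.238, adjusted p = 0.20, edgeR). 3 of 10 genes were called higher, against 10.4% of the 14834 genes tested that were higher and 7.37% that were lower, and 1 of 10 exceeded a log2FC of 1, against 5.94%. Libraries did not overlap for 2 of 10, against 5.77%, and 7 of 10 had an unadjusted p below 0.05, against 29.9%. Without M 5XFAD NX 4 and 5, 10 of 10 genes were called higher, against 17.9% of all genes in that fit, and the log2FCs were between 0.58 (mt-Nd2) and 1.35 (mt-Nd6). Leaving out M 5XFAD NX 4 alone gave 6 genes, against 11% of all genes, and leaving out M 5XFAD NX 5 alone gave 8, against 11.5%.

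**Figure D3:**
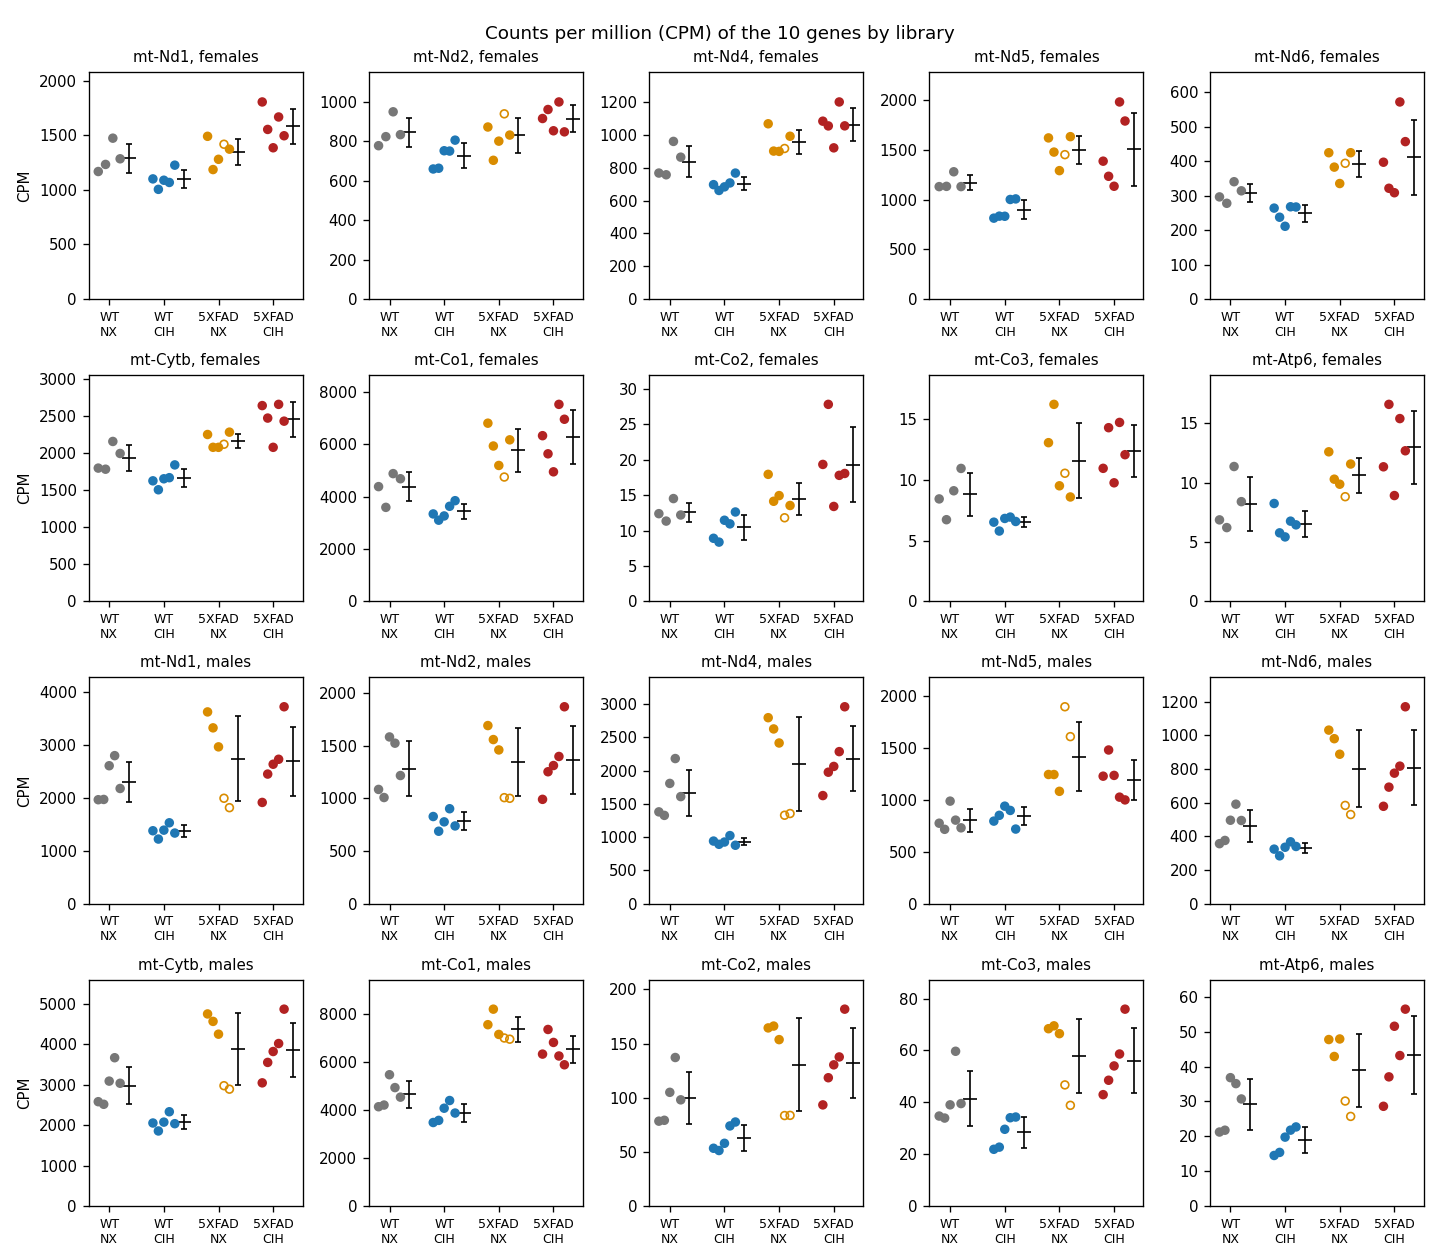
CPM of each gene by library and group, with females in the upper and males in the lower rows. Points are libraries, open points are F 5XFAD NX 4, M 5XFAD NX 4 and M 5XFAD NX 5, and bars are mean ± SD; in males these open points lie below the rest of their group in 9 genes and above it in mt-Nd5, at 1901 and 1613 CPM.

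In WT males, 9 of the 10 transcripts were lower after CIH. mt-Nd1 fell from 1967, 1972, 2609, 2799.6 and 2179 CPM in WT NX to 1380.4, 1224, 1392, 1531 and 1337 CPM in WT CIH, without overlap (log2FC −0.85 ± 0.111, adjusted p = 0.00027, edgeR). mt-Nd4 fell most, from 1327 to 2179.9 CPM to between 879 and 1024 CPM (log2FC −0.93 ± 0.127). mt-Nd2 (−0.81) and mt-Cytb (−0.63) of complexes I and III fell without overlap too, as did mt-Co2 (−0.77).

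mt-Nd6 fell with some overlap of libraries (log2FC −0.59 ± 0.129), as did mt-Co3 (−0.64), mt-Atp6 (−0.74) and mt-Co1, which fell least (−0.36 ± 0.0933, adjusted p = 0.0090, edgeR). mt-Nd5 did not pass: it was at 778, 719, 991, 807 and 733 CPM in WT NX and at 798, 854, 942, 901 and 721 CPM in WT CIH (log2FC −0.03, with a 95% interval of −0.24 to 0.18). 9 of 10 genes were called lower, against 15.0% of the 14983 genes tested, and 0 fell beyond a log2FC of −1, against 0.881%. Libraries were lower without overlap for 5 of 10, against 6.59% of genes. The median log2FC of the 10 genes was −0.69, and that of all genes tested −0.01.

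The calls in WT males depended on the fit. When all 4 male groups shared an estimate of the spread, the log2FCs were the same to within 0.01 but 0 genes of any kind were called, and the adjusted p-values of the 9 genes were between 0.057 and 0.11. WT CIH libraries also differed from WT NX libraries in other ways. The slope of log2 expression on log2 gene length, against the mean of all libraries, was −0.0459 to 0.0362 in WT NX and −0.0102 to 0.0979 in WT CIH, and with this trend removed 3 genes were called lower, against 9.77% of all genes (mt-Nd1, −0.46, mt-Nd2, −0.42, and mt-Nd4, −0.58). The 5 nuclear lncRNAs summed to 604 to 1278 CPM in WT NX and 1290 to 1807 CPM in WT CIH, with Malat1 called higher (log2FC 1.11), and 5 of 5 neutrophil markers were called lower (median log2FC −1.76, summed levels 232 to 1215 against 113 to 349 CPM, none of the 5 at 3 counts or fewer throughout). Microglial markers summed to 36651 to 38832 CPM in WT NX and 32965 to 35480.3 CPM in WT CIH, without overlap, with 4 of 8 called lower, against 15.0% of all genes. The part of these differences in the fall of the mitochondrial transcripts was not tested.

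In WT females, 0 of 10 genes and 0.0% of the 14583 genes tested were called after CIH by edgeR's quasi-likelihood test. Its likelihood ratio test called 0 of 10, and DESeq2 called 1 gene, mt-Nd5, which was the single gene it called among all (0.00686%). The 10 log2FCs were all below 0, from −0.24 (mt-Nd2) to −0.45 (mt-Co3), with adjusted p = 0.96 for each (edgeR). mt-Nd5 had been at 1130.2 to 1279.6 CPM in WT NX and was at 813 to 1007 CPM in WT CIH, without overlap (log2FC −0.40 ± 0.0862). mt-Nd6 did not overlap either, at 277 to 340.0 CPM in WT NX and 211 to 267 CPM in WT CIH (−0.32 ± 0.0855). These 2 of 10 genes stood against 0.288% of genes that were lower without overlap. At an unadjusted p below 0.05 there were 8 of 10 genes, against 3.87% of genes.

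**Figure D4:**
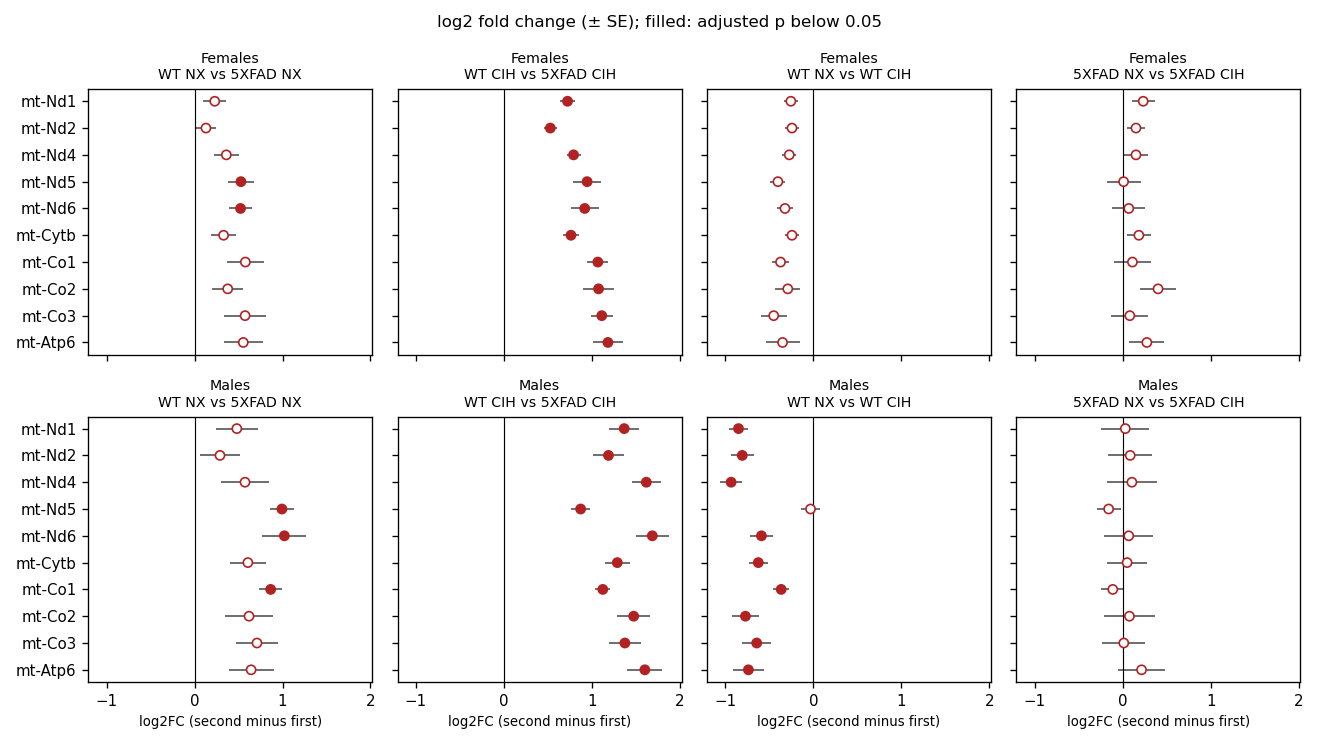
log2FC of each gene (second group minus first, ± SE) for the genotype and treatment comparisons within each sex. Filled points passed an adjusted p of 0.05 in edgeR's quasi-likelihood test; in CIH all 10 genes are filled and above 0 in both sexes, and in 5XFAD none are filled.

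In 5XFAD mice, 0 of 10 genes were called after CIH in either sex, and 0.0% of 14578 genes in females and of 14334 genes in males, by edgeR's quasi-likelihood test. At an unadjusted p below 0.05 there were 0 of 10 in females, against 3.22% of genes, and 0 of 10 in males, against 3.3%. DESeq2 called 0 of the 10 in either sex, and the likelihood ratio test 0. Over all settings tried, 0% of all genes were called in females and 0% to 0.00698% in males. In females, the log2FCs were between 0.01 (mt-Nd5) and 0.40 (mt-Co2), and the 95% interval of mt-Co1 was −0.30 to 0.52. In males, the log2FCs were between −0.16 (mt-Nd5) and 0.22 (mt-Atp6), and the interval of mt-Nd1 was −0.50 to 0.56. The log2FC of mt-Nd1 in WT males (−0.85) has an interval of its own, −1.07 to −0.63. The effects of CIH in WT and 5XFAD are compared by the interaction given below. Without M 5XFAD NX 4 and 5, the log2FCs of the 10 genes in males were all below 0, from −0.30 ± 0.202 (mt-Nd1) to −0.02 ± 0.123 (mt-Nd5). Again 0 genes were called. With all libraries, 8 of the 10 were above 0.

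The genotype and treatment comparisons of a sex share groups, so their values are given side by side and are not independent. The difference between genotypes in the effect of CIH was tested as an interaction over the 4 groups of a sex. In males, 0 of 10 genes were called, and 0.0% of 15813 genes, by edgeR's quasi-likelihood test. The interaction log2FC was highest for mt-Nd4 (1.04 ± 0.339, adjusted p = 0.12, edgeR), and those of mt-Nd1 (0.88), mt-Nd2 (0.89), mt-Co2 (0.85) and mt-Atp6 (0.95) were of like size. mt-Nd5 had a log2FC of −0.13 ± 0.170. Without M 5XFAD NX 4 and 5 the interaction was smaller, with a log2FC of 0.66 ± 0.247 for mt-Nd4, 0.54 for mt-Nd1, 0.59 for mt-Nd2, 0.48 for mt-Co2 and 0.63 for mt-Atp6, and 0 of 10 genes were called. When M 5XFAD NX 1 was left out instead, 3 genes were called, against 3.25% of all genes that were higher. 6 of 10 genes had an unadjusted p below 0.05, against 24.4% of genes, and DESeq2 called 3 of the 10 (mt-Nd1, mt-Nd2 and mt-Nd4), against 4.22% of genes that were higher, and the likelihood ratio test 0, against 0.79%. Without the filter on low counts, the quasi-likelihood test called 5 of 10, against 2.28% of genes (mt-Nd4, mt-Nd2, mt-Nd1, mt-Atp6 and mt-Co2, with adjusted p-values of 0.0011 to 0.0092, edgeR). In females, 0 of 10 were called, and 0.0% of 15582 genes, with log2FCs from 0.38 (mt-Nd6) to 0.68 (mt-Co2) and adjusted p = 0.95 (edgeR). 5 of 10 had an unadjusted p below 0.05, against 3.78% of genes, and DESeq2 and the likelihood ratio test called 0. Whether the effect of CIH differed between genotypes in males thus depended on the tool, the filter and the libraries kept.

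Within libraries, mt-Nd5 did not keep a fixed ratio to the other genes in males. Its count divided by that of mt-Nd1 was 0.288 to 0.395 in WT NX and 0.539 to 0.698 in WT CIH. It was 0.344, 0.375 and 0.366 in M 5XFAD NX 1 to 3 but 0.953 and 0.888 in M 5XFAD NX 4 and 5, and it ran from 0.269 to 0.643 in 5XFAD CIH. In females the ratio was 0.868 to 0.967 in WT NX, 0.738 to 0.937 in WT CIH, 1.01 to 1.25 in 5XFAD NX and 0.767 to 1.20 in 5XFAD CIH, and lay above that of most male libraries. Sex, age and the set of genes counted differed together between females and males, so their parts in this difference cannot be told apart.

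The ratio of mt-Nd6 to mt-Nd1, of a gene of the one strand to a gene of the other, varied less within each male group than that of mt-Nd5. In males it was 0.181 to 0.227 in WT NX, 0.233 to 0.255 in WT CIH, 0.284 to 0.299 in 5XFAD NX and 0.282 to 0.314 in 5XFAD CIH. All 5XFAD males lay above all WT males, M 5XFAD NX 4 and 5 (0.293 and 0.292) included. In females it was 0.225 to 0.253 in WT NX, 0.194 to 0.250 in WT CIH, 0.261 to 0.322 in 5XFAD NX and 0.206 to 0.342 in 5XFAD CIH, and the genotypes overlapped in CIH. These ratios were chosen after the values were seen and were not tested.

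**Figure D5:**
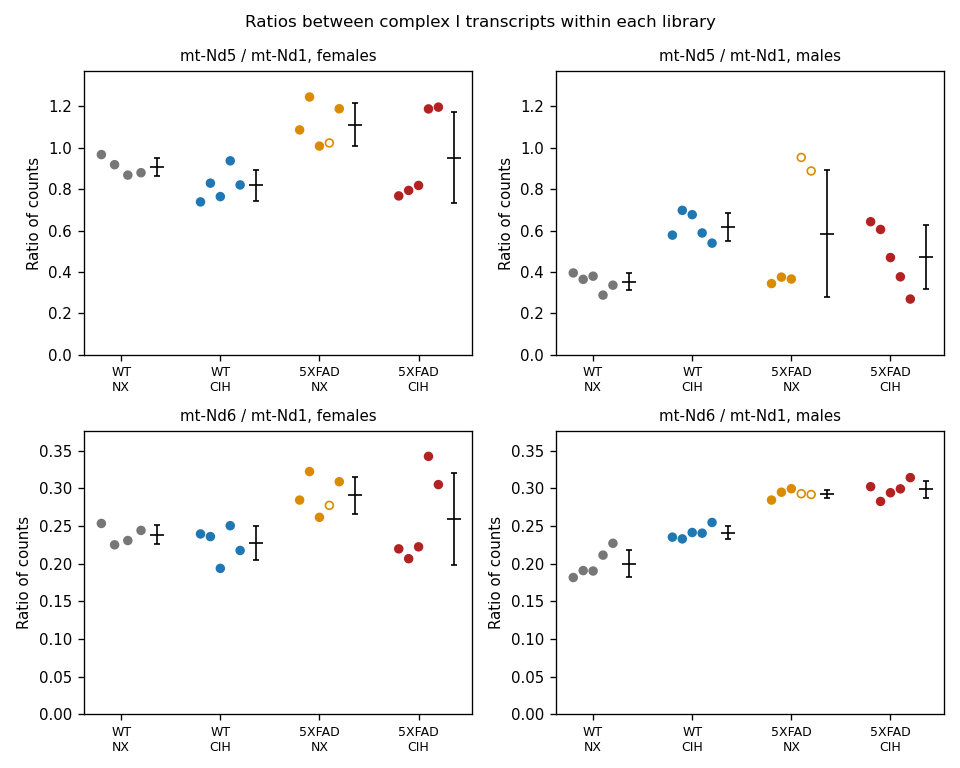
Count of mt-Nd5 (upper row) and mt-Nd6 (lower row) divided by that of mt-Nd1 in the same library, for females and males. Points are libraries, open points are F 5XFAD NX 4, M 5XFAD NX 4 and M 5XFAD NX 5, and bars are mean ± SD; mt-Nd5 over mt-Nd1 reaches 0.953 and 0.888 in the open points of males, against 0.344 to 0.375 in the rest of the group.

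The co-variation of the genes within groups followed the same lines. Pearson's r of the deviations of log2 CPM from the group means was positive for 45 of 45 gene pairs over the 19 female libraries, with a median of 0.678. Over the 20 male libraries, the 36 pairs without mt-Nd5 had r from 0.712 to 0.992, and the 9 pairs with mt-Nd5 had r from −0.356 to 0.163. Without M 5XFAD NX 4 and 5, over 18 libraries, the pairs with mt-Nd5 had r from −0.0990 to 0.709 and the others from 0.483 to 0.988. In females, the 9 pairs with mt-Nd5 had r from 0.412 to 0.940. All genes of a library share its depth and its cells, so these values are a description.

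The genes off chromosome MT whose deviations were most like the mean of the 10 were Ndufa11 (r = 0.94), a subunit of complex I, followed by Emc3, Zmpste24, As3mt and BC004004 (r = 0.91 to 0.92) over 19 female libraries. Over 20 male libraries they were Gm29216 (r = 0.96), Mrpl18, Gm10925, Fcer1g and Atp5h (r = 0.95 to 0.96). Gm29216 and Gm10925 are nuclear copies of mt-Co1 and mt-Atp6, whose reads cannot be fully separated from those of their source. Mrpl18 codes for a protein of the mitochondrial ribosome, Atp5h for a subunit of complex V and Fcer1g for an Fc receptor chain of myeloid cells. Spearman's rho was 0.86 to 0.96 for these 10 genes, and r without the 2 libraries farthest from the median was 0.85 to 0.96. Without M 5XFAD NX 4 and 5, the 5 male genes had r of 0.906 to 0.932.

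The nuclear-encoded subunits of the same complexes were set beside the mitochondrial ones. In WT CIH vs 5XFAD CIH, 75 of 78 tested in males were called higher, against 25.3% of all genes, and 0 lower, with a median log2FC of 1.30 against 1.37 for the 10 mitochondrial genes and −0.06 for all genes. By complex, 34 of 37 of complex I, 4 of 4 of complex II, 9 of 9 of complex III, 12 of 12 of complex IV and 16 of 16 of complex V rose, with Cox7a2l of complex IV at the lowest adjusted p (log2FC 1.78 ± 0.119, adjusted p = 3.7e-08, edgeR). In females, 69 of 79 were called higher, against 26.2%, with a median log2FC of 0.65 against 0.93 for the mitochondrial genes, and Ndufa1 of complex I had the lowest adjusted p (log2FC 2.18 ± 0.177, adjusted p = 4.0e-07, edgeR).

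In WT NX vs WT CIH males, 61 of 78 nuclear-encoded subunits were called lower, against 15.0% of all genes, and 1 higher, against 13.6%, with a median log2FC of −0.53 against −0.69 for the mitochondrial genes. Ndufa13 of complex I fell with a log2FC of −0.83 ± 0.106 and Atp5mc2 of complex V with −0.78 ± 0.0938 (adjusted p = 0.00027 for each, edgeR). Between genotypes in NX, 9 of 78 were called higher in males, against 10.4% of all genes, and 2 of 79 in females, against 7.26%, shares near or below the background (medians of 0.41 and 0.33). In 5XFAD NX vs 5XFAD CIH and in WT NX vs WT CIH females, 0 were called. In each of these comparisons the medians of both sets of subunits had the same sign.

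The genes that copy mitochondrial DNA and transcribe and process its RNA, and the lists that follow, are to be read against the shares of all genes called in WT CIH vs 5XFAD CIH, which were 25.3% higher and 23.7% lower in males and 26.2% higher and 25.7% lower in females. Of the first list, 3 of 30 were called higher and 4 lower in WT CIH vs 5XFAD CIH males (median log2FC −0.12), with Hsd17b10, a subunit of the mitochondrial RNase P, at the lowest adjusted p (log2FC 1.37, adjusted p = 1.0e-05, edgeR). In females 5 of 32 were higher and 7 lower (median −0.12), with Mgme1, a nuclease of mitochondrial DNA, at −0.48. Of the same list, 2 were called higher and 1 lower in WT NX vs WT CIH males, against 13.6% and 15.0% of all genes, and Polg, the mitochondrial DNA polymerase, rose with a log2FC of 0.50 (adjusted p = 0.0011, edgeR). Markers of mitochondrial content rose in 10 of 14 in WT CIH vs 5XFAD CIH males (median 0.53) and in 11 of 14 in females (median 0.39), and 5 of 14 fell in WT NX vs WT CIH males (median −0.19). Of 10 genes of mitophagy and dynamics, 5 were higher and 1 lower in WT CIH vs 5XFAD CIH males, led by Fis1 (log2FC 1.62), a mitochondrial fission factor, and 6 higher and 1 lower in females, led by Pink1 (log2FC 0.78), a kinase of mitophagy.

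On chromosome MT itself, the other coding genes mt-Nd3 and mt-Nd4l were low and 98.1% and 98.9% of their 31-base windows lay in a nuclear copy. mt-Atp8 was lower still, at means of 0.0718 to 0.797 CPM per group and at most 24 counts in a library, although only 7.47% of its 31-base windows and 0% of its 150-base windows lay in a nuclear copy. mt-Nd3 and mt-Nd4l rose in WT CIH vs 5XFAD CIH in both sexes, with mt-Nd3 at a log2FC of 1.57 in males and 1.31 in females. The rRNAs mt-Rnr1 and mt-Rnr2 rose too (median log2FC 1.71 in males and 1.35 in females). Neither rRNA was called in WT NX vs WT CIH males (mt-Rnr2 0.18 ± 0.162, adjusted p = 0.44, edgeR). In F 5XFAD NX 1, mt-Rnr1 was at 4.49 CPM and mt-Rnr2 at 34.6 CPM, against 84.9 to 283 and 241 to 689 CPM in the other 4 libraries of the group, while that library had the highest share of counts on the 10 coding genes (1.46%).

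Genes of other cells and of the state of the libraries also differed between genotypes in CIH, and the counts called have the same shares of all genes behind them (25.3% higher and 23.7% lower in males, 26.2% and 25.7% in females). Border macrophage markers were at 151 to 333 CPM in summed level in WT CIH males and at 71.9 to 172 CPM in 5XFAD CIH males, with 3 of 6 called lower. In females they were at 144 to 309 and at 61.1 to 109 CPM, with 6 of 6 called lower. Astrocyte markers summed to 170 to 260 and 197 to 535 CPM in males (1 of 6 higher and 2 lower) and to 168 to 211 and 207 to 615 CPM in females (3 of 6 higher and 1 lower). Gfap, an intermediate filament of reactive astrocytes, had the lowest adjusted p in both. Malat1 was lower in 5XFAD CIH males (log2FC −1.76 ± 0.296, adjusted p = 0.00022, edgeR). Microglial markers summed to 32965 to 35480.3 CPM in WT CIH and 26348 to 27281 CPM in 5XFAD CIH males, with P2ry12, a homeostatic receptor, at −1.03. In females they summed to 31589 to 35024 and to 25159 to 25940 CPM, with P2ry12 at −1.07, and endothelial markers to 49.7 to 128 and to 139 to 217 CPM, with 1 of 5 higher and 1 lower. Malat1 was lower in 5XFAD CIH females too (−0.41, adjusted p = 0.048, edgeR).

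Markers also differed between genotypes in NX. In males, microglial markers summed to 36651 to 38832 CPM in WT NX and 25101 to 28127 CPM in 5XFAD NX, border macrophage markers to 235 to 329 and 74.7 to 143 CPM, and astrocyte markers to 138 to 193 and 314 to 912 CPM, none of which overlapped. Called lower were 4 of 8 and 5 of 6 of the first 2 lists, against 7.37% of all genes, and 3 of 6 astrocyte markers were higher, against 10.4%. In females, microglial markers summed to 31437 to 34535.5 and 25563 to 29501 CPM and border macrophage markers to 179 to 336 and 77.6 to 147 CPM, without overlap, with 3 of 8 and 6 of 6 called lower, against 6.61%. The part of the differences in markers in the values of the mitochondrial genes was not tested, in NX or in CIH. Adding the counts of the nuclear copies to their source genes in males left the number called at 10 in WT CIH vs 5XFAD CIH (25.2% of all genes), 9 in WT NX vs WT CIH (15%) and 3 in WT NX vs 5XFAD NX (10.4%).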

How the data were processed

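Total RNA of CD11b+ microglia was sequenced as paired reads and aligned to GRCm38/mm10 with HISAT2 by the authors, as given in the study's methods and the submitters' processing notes. The read counter, its use of strand and its handling of reads with several placements are not given in the sources used here. The deposited tables hold raw counts per gene and, beside them, FPKM values made by the authors, with a table for each sex. The tests used the deposited counts. The FPKM values served only as an alternative.

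Genes with more than 1 CPM in at least 3 of the compared libraries were fitted with edgeR 4.0.16 in R 4.3.3 (TMM factors, quasi-likelihood F test, Benjamini-Hochberg adjustment over all genes tested), with only the 2 groups compared, or all 4 groups of a sex for the interaction. A gene was called at an adjusted p below 0.05, and a second count also asked for a log2FC beyond 1. CPM values are counts scaled to a library's total, without TMM. Alternatives were DESeq2 1.42.0, limma 3.58.1 on log2(FPKM + 1), a likelihood ratio test, library size alone, chromosome MT left out of library sizes, no filter, a replicate block and leaving out each library. Genotype and treatment comparisons were also fitted with all 4 groups of a sex. The fits without M 5XFAD NX 4 and 5, with the length trend of each library removed and with the counts of nuclear copies added were chosen after seeing the data. The fit was tested on simulated data. Intervals are log2FC ± 1.96 SE.

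Libraries held 13457293 to 25906121 counts, and no pair of libraries of a group agreed within sampling noise over 76 pairs. Replicate numbers were not taken to pair the samples. Of 38 pairs with the same number, 13 had deviations that correlated above 0.1, and in no comparison did all of them. These correlations cannot exclude that samples of the same number share a source. The 10 genes and the gene lists were chosen with earlier results of these data known. By the rule for naming genes, each of the 10 was given by its value in every library or its range, a listed gene was named where it had the lowest adjusted p of its list in a comparison, and in each sex the 5 genes off chromosome MT with the highest r to the mean of the 10 were named. The pseudogenes were named from the sequence search. Cx3cr1, the levels of Malat1 in single libraries, mt-Nd3, mt-Nd4l, mt-Atp8 and the rRNAs were chosen after their values were seen. Protein sequences were not used here.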

Additional observations from a re-analysis of the deposited data

Results flagged for a closer look

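In the search for single libraries far from the rest of their group, 2 of 80 combinations of gene and group stood out by Dixon's test, and chance gives about 1 in 20. mt-Nd5 was at 1280 CPM in F WT NX 3, against 1130.2 to 1133 CPM in the other 3 libraries of the group. mt-Co3 was at 59.7 CPM in M WT NX 4, the highest of 5 libraries. The cause of either value was not tested.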

How the results depend on the processing

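Counts of the 10 genes called depended on the processing where genotypes were compared in NX. In WT NX vs 5XFAD NX females, 2 genes were called, against 5 with DESeq2, 3 with the likelihood ratio test, 6 with all 4 groups, 1 without the filter, 1 with the length trend removed, 0 with library size alone, 0 with limma, 0 beyond a log2FC of 1, and 0 to 8 without each library in turn. The fit with the replicate block called 0 there, 2 in NX males against 3 without it, and changed no other count of calls. In NX males, 5 genes were called with DESeq2, the likelihood ratio test, all 4 groups or the length trend removed, 4 without the filter, 1 beyond a log2FC of 1, 10 without M 5XFAD NX 4 and 5, and 3 to 8 without each library. In WT NX vs WT CIH males, 9 genes were called, against 8 with limma, 3 with the length trend removed, and 0 with all 4 groups or beyond a log2FC of 1. In WT CIH vs 5XFAD CIH females, 4 passed the log2FC limit, and 10 were called under every other setting. DESeq2 called 1 gene in WT NX vs WT CIH females. The male interaction had 3 genes with DESeq2, 5 without the filter and 0 to 3 without each library. Over the settings, the share of all genes called in either direction ran from 0.0482% to 44% in WT NX vs 5XFAD NX females, 7.91% to 33.5% in those males, 17.6% to 60% in WT CIH vs 5XFAD CIH females, 19.7% to 60.9% in those males, 0% to 31.9% in WT NX vs WT CIH males, 0% to 0.0599% in those females and 0% to 6.43% in the male interaction. In 5XFAD NX vs 5XFAD CIH this share was 0% in females and 0% to 0.00698% in males, and in the female interaction it was 0%. Causes were not tested.

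Values that changed sign belonged to genes that were not called. Between genotypes in NX females, mt-Nd2 had −0.0257 with library size alone and −0.0312 with limma. In 5XFAD NX vs 5XFAD CIH females, mt-Nd5 had −0.0142 without the filter, −0.018 with limma, −0.0128 with the replicate block and −0.0455 with the length trend removed, which also gave −0.14 for mt-Nd6 and −0.013 for mt-Co3. Without each library there, mt-Nd5 ran from −0.10 to 0.11, mt-Nd6 from −0.0745 to 0.17, mt-Co1 from −0.0027 to 0.20 and mt-Co3 from −0.0088 to 0.27. In WT NX vs WT CIH males, mt-Nd5 had 0.0672 with library size alone, 0.0016 without the filter and 0.25 with the length trend removed, and −0.0767 to 0.0588 without each library. In 5XFAD NX vs 5XFAD CIH males, library size alone gave −0.0289 for mt-Nd1, −0.0098 for mt-Cytb and −0.0501 for mt-Co3. Without M 5XFAD NX 4 and 5 there, the values were −0.30 for mt-Nd1, −0.20 for mt-Nd2, −0.26 for mt-Nd4, −0.26 for mt-Nd6, −0.23 for mt-Cytb, −0.28 for mt-Co2, −0.28 for mt-Co3 and −0.0944 for mt-Atp6. With the length trend removed they were −0.15 for mt-Nd1, −0.10 for mt-Nd2, −0.19 for mt-Nd6, −0.11 for mt-Cytb, −0.12 for mt-Co2, −0.20 for mt-Co3 and −0.0148 for mt-Atp6. Without each library, they ran from −0.16 to 0.19 for mt-Nd1, −0.10 to 0.22 for mt-Nd2, −0.0703 to 0.27 for mt-Nd4, −0.15 to 0.22 for mt-Nd6, −0.0836 to 0.17 for mt-Cytb, −0.11 to 0.21 for mt-Co2 and −0.16 to 0.12 for mt-Co3.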
